A study of Mus musculus with 96 samples.

Results

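The second Ctcf knockdown in EL4 cells compared one culture carrying an shRNA against luciferase, shLuc #2, with one culture carrying an shRNA against Ctcf, shCTCF #2. The members were the 48 single cells whose labels named them WT2 (24 cells) or CTCFKD2 (24 cells), out of 96 cells in the series. Cells with at least 3000 genes above 0 TPM were kept, which left 23 shLuc #2 cells and 24 shCTCF #2 cells. EL4 is a mouse T-lymphoma line, whose strain is C57BL/6 in the labels and C57BL/6 N in the methods. The labels give no treatment other than the hairpin, and name genotype CTCF knockdown for shCTCF #2. In the methods, the hairpins were delivered by viral particles, GFP+ cells were sorted after infection, and each culture was loaded on its own microfluidic circuit (IFC) of the Fluidigm C1 system. The best 24 cells of each circuit were chosen for sequencing. The first pair, shLuc #1 and shCTCF #1 (24 cells each), came from an earlier knockdown, shared no cells with the second, and is given beside it. Which of the study's hairpins shCTCF #2 carried was not given in the sources used here.

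There was 1 culture per side, so the 47 cells are units of their cultures and not replicates of a condition. No test was possible, and culture, circuit and condition cannot be told apart. Values are in TPM, by which the authors scaled reads to gene length and to each cell's sum. A difference is the mean over shCTCF #2 cells of log2(TPM + 1) minus the same mean over shLuc #2 cells, and an SD is the spread over cells. The sum of 1 keeps a value of 0 on the scale and makes differences between low values smaller. Values of 0 in some cells lower a mean of logs more than they lower a mean of TPM. A difference can therefore be larger than on the log2 of each culture's mean TPM + 1, which is given beside it for many results. A gene is counted as higher or lower when its difference reached 1 or -1, that is 2-fold on this scale.

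CTCF is a zinc finger protein that binds insulators and, with the cohesin ring, anchors chromatin loops. Rapidly dividing lymphoma cells make many ribosomes. RNA polymerase I copies the ribosomal DNA, small nucleolar ribonucleoproteins (snoRNPs) modify the transcript, and a large set of assembly factors cuts and folds it into subunits. De novo purine synthesis and folate one-carbon enzymes supply the nucleotides. Immediate early genes, such as Egr1 and Fos, are transcribed within minutes of a signal, in T cells through the T-cell receptor.

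Cells of shCTCF #2 held fewer reads and more genes. Read numbers could be worked back from the TPM table, since the values of a gene are multiples of what 1 read is worth in a cell. They ranged from 143112 to 405404 per cell in shLuc #2 (median 230477) and from 41591 to 271300 in shCTCF #2 (median 131098). In 19 of 24 shCTCF #2 cells they were fewer than in every shLuc #2 cell. The median number of genes detected was 4635 in shLuc #2 (range 3630 to 6484) and 5656 in shCTCF #2 (range 3150 to 6643), a difference of 1021 genes. The ranges overlapped, and 22 of 24 shCTCF #2 cells lay above the shLuc #2 median. After each cell was thinned to 80000 reads (1 shCTCF #2 cell had fewer and dropped out), the median cell had 3940 genes in shLuc #2 and 5219 in shCTCF #2. One shCTCF #2 cell stood apart with 41591 reads, 3150 genes and 38862 TPM of Malat1, a nuclear RNA, against at most 5882 TPM in the others. The T-cell markers were present in both cultures, with a summed median of 10720 TPM (shLuc #2) and 10541 TPM (shCTCF #2). Markers of B cells, myeloid cells and fibroblasts had a summed median of 0 TPM in each culture.

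**Figure D1:**
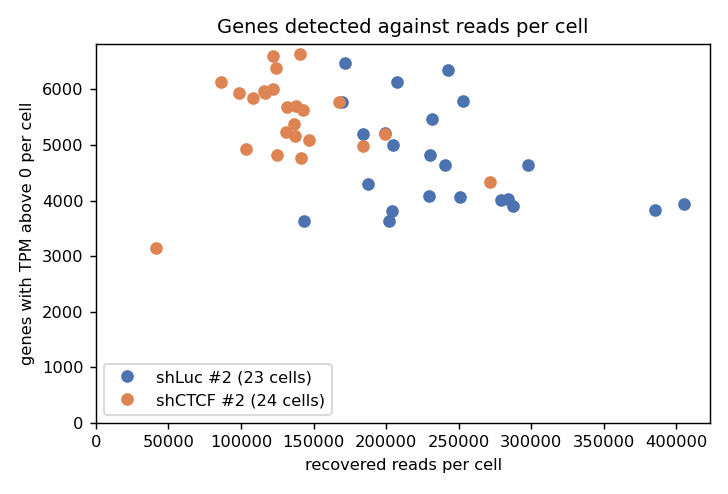
Recovered reads per cell (x axis) and genes above 0 TPM per cell (y axis), 1 point per cell kept. Most shCTCF #2 cells lie to the left of the shLuc #2 cells and at or above their number of genes, with one shCTCF #2 cell apart at 41591 reads and 3150 genes.

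Over all cells kept, the mRNA of the targeted gene was not lower in the culture labelled shCTCF #2. Ctcf (chr8:105636568-105682922 of GRCm38, plus strand) ranged in shLuc #2 cells from 0 through a median of 19.1 to 170 TPM. In the culture labelled shCTCF #2 it ranged from 0 through 31.5 to 205 TPM. The cells overlapped over nearly the whole range, and 14 of 24 shCTCF #2 cells lay above the shLuc #2 median. Reads of Ctcf were found in 17 of 23 shLuc #2 cells (73.9%, exact 95% binomial interval 51.6 to 89.8%) and in 20 of 24 shCTCF #2 cells (83.3%, 62.6 to 95.3%). The mean of log2(TPM + 1) was 3.72 (SD 2.62) and 4.31 (SD 2.39), a difference of 0.58. Between the cultures labelled shLuc, shLuc #2 minus shLuc #1 was -0.65, with a mean of 4.37 in shLuc #1. The difference of 0.58 was thus no larger in size than that between cultures labelled alike. In RPM, recovered reads summed over cells and scaled to a common total, Ctcf was at 71.7 (exact 95% Poisson interval 64.8 to 79.2) and 81.98 (72.4 to 92.5). Intervals here cover counting error only, since reads without molecular identifiers are not independent molecules.

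The sign of the Ctcf difference depended on the cells kept. The 6 shLuc #2 cells under 4000 genes had a mean of 1.37 on the log2 scale and the other shLuc #2 cells one of 4.55. With at least 4000 genes per cell, which kept 17 and 23 cells, the difference was -0.28. With at least 5000 genes, which kept 9 and 18 cells, it was -0.68. In the first experiment it was -1.83 over all cells kept, -2.02 with at least 4000 genes and -2.97 with at least 5000 genes. Since Ctcf mRNA was not lower over all cells kept, directions are those of the culture labelled shCTCF #2 against shLuc #2, not of a shown loss of Ctcf mRNA. Ctcf protein was not measured in these files, which do not settle whether the label is right.

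Of 20 members of the list of CTCF, cohesin and loop factors tested, 4 were higher (20%) and 1 lower (5%), shares near the 22.1% and 4.75% of all genes. The cohesin subunit Smc1a had a difference of 0.57 and the cohesin subunit Rad21 one of -0.48. Nipbl, which loads cohesin, was lowest at -1.02, with 7 of 23 shLuc #2 cells above every shCTCF #2 cell. Cdca5 (sororin), which protects cohesin after replication, was highest at 1.605. The median of the list was 0.13, and -0.52 on log2 of the mean TPM + 1.

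**Figure D2:**
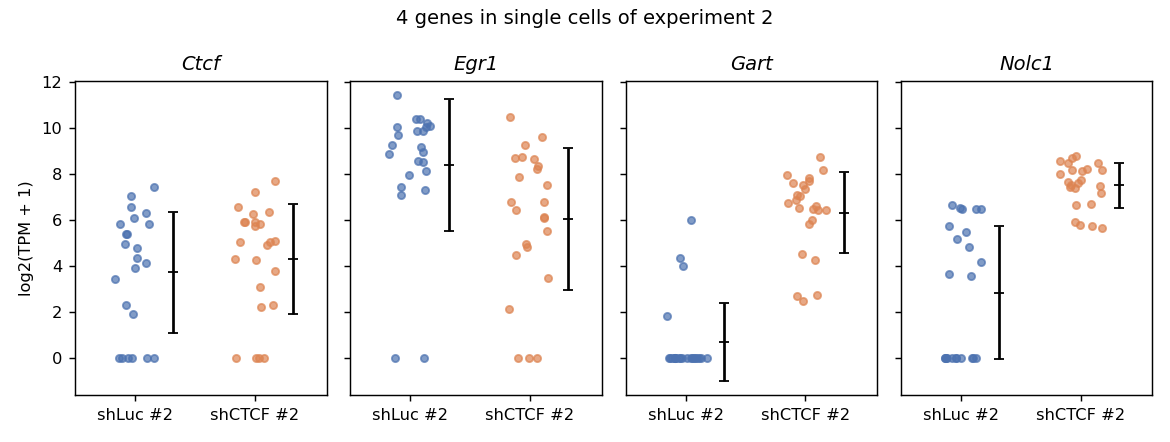
Values of log2(TPM + 1) of Ctcf, Egr1, Gart and Nolc1 (y axis) in each cell kept of shLuc #2 (23 cells) and shCTCF #2 (24 cells), with bars at the mean and 1 SD over cells. Ctcf cells overlap, Egr1 lies lower in shCTCF #2, and Gart and Nolc1 were found in all 24 shCTCF #2 cells and in 4 and 12 shLuc #2 cells.

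Across all genes, higher values in shCTCF #2 were more frequent than lower ones. Of 10989 genes tested, 2430 were higher (22.1%) and 522 were lower (4.75%), and the median difference was 0.26. More genes were also detected per cell in shCTCF #2, and the part of this in the median shift was not tested. Values of the gene groups are therefore given against 0.26. On log2 of the mean TPM + 1 of each culture, the counts were 2095 higher (19.1%) and 1917 lower (17.4%), with a median of 0.016. After the median was subtracted, 1784 were higher and 948 lower, and among cells with at least 5000 genes 1914 were higher and 1555 lower. Higher genes thus made up 82.3% of the genes past the fold on the first scale and 52.2% on that of the mean TPM. Of the 2430 genes, 2227 were also above 0 on the scale of the mean TPM and 1033 were higher there. Of the 522, 517 were below 0 and 411 were lower there. Between the control cultures, where no hairpin differs by label, shLuc #2 minus shLuc #1 had 1111 of 10867 genes higher (10.2%) and 853 lower (7.85%). Those counts show how many genes pass the fold between cultures labelled alike.

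On the mean of log2(TPM + 1), the surplus of higher genes was greatest at intermediate levels. Among genes with a mean log2(TPM + 1) from 4 to 6, 669 of 1556 were higher and 87 were lower, and the median difference was 0.75. Among 422 genes with a mean above 8, 33 were higher and 23 lower, with a median of -0.026. At such levels the median share of cells with the gene was 100% in both cultures. At levels from 4 to 6, the median share of cells with the gene was 73.9% in shLuc #2 and 87.5% in shCTCF #2. On log2 of the mean TPM + 1, the median difference was 0.083 at levels from 4 to 6. On that scale it was 0.105 from 0 to 1, -0.031 from 2 to 4 and -0.063 above 8. On the mean of log2(TPM + 1) it was 0.065 from 0 to 1, 0.52 from 2 to 4 and 0.37 from 6 to 8. The gene lists were not matched for level, and the part of level in their medians was not tested.

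The genes with the greatest positive difference were Gart, Noc4l, Chchd4, Dkc1, Creld2, Cirh1a, Snora68 and Shmt1. By rule these are the 8 largest among genes with reads in at least 50% of the cells of one culture. On log2 of the mean TPM + 1 their differences were smaller, at 4.58 for Gart and 4.50 for Shmt1. Those of the other genes ran from 1.90 (Chchd4) to 2.62 (Dkc1) on that scale. Differences below are on the mean of log2(TPM + 1) unless the other scale is named. Gart (chr16:91621186-91646952, minus strand), a trifunctional enzyme of de novo purine synthesis, was listed at 0 in 19 of 23 shLuc #2 cells and reached 63.4 TPM in the others. In shCTCF #2 it was found in 24 of 24 cells, from 4.58 through 101 to 429 TPM. No shLuc #2 cell lay above the shCTCF #2 median, and 17 shCTCF #2 cells lay above every shLuc #2 cell. The difference was 5.62, and in RPM Gart was at 5.10 (3.39 to 7.37) and 219.6 (204 to 236). Gart overlaps exons of Gm15964 on the other strand, and whether the counting used strand was not given in the sources used here. The study's own display of its most different genes also holds Gart, so its direction is not independent evidence.

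Nolc1 (chr19:46075863-46085530, plus strand), a nucleolar phosphoprotein that escorts snoRNPs, showed a similar separation. It ranged from 0 through 10.7 to 98.2 TPM in shLuc #2 and from 49.2 through 196 to 441 TPM in shCTCF #2. It was found in 12 of 23 and 24 of 24 cells, and 20 of 24 shCTCF #2 cells lay above every shLuc #2 cell. The difference was 4.67, and 2.889 on log2 of the mean TPM. The SD over cells was 2.89 in shLuc #2 and 0.97 in shCTCF #2, and RPM was 52.8 (46.9 to 59.2) and 411 (389 to 434).

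Dkc1, the pseudouridine synthase of box H/ACA snoRNPs, was found in 13 and 23 cells, with medians of 9.78 and 474 TPM and a difference of 4.97. In 20 of 24 shCTCF #2 cells it lay above every shLuc #2 cell, while one shCTCF #2 cell had none. It overlaps Mpp1 on the other strand. Cirh1a, a component of the small subunit processome, was found in 13 and 24 cells, with medians of 5.65 and 375 TPM and a difference of 4.75. Noc4l, which acts in 40S subunit maturation, was found in 4 and 22 cells with a difference of 5.22. Its highest cell was a shLuc #2 cell at 644 TPM, so the groups overlapped at the top.

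The other 4 genes named by this rule had separate roles. Chchd4, an oxidoreductase of the mitochondrial intermembrane space, was found in 10 and 24 cells, with a difference of 5.16. Creld2, an endoplasmic reticulum protein, was found in 6 and 21 cells, with a difference of 4.77. Shmt1, the cytosolic serine hydroxymethyltransferase, was found in 5 and 20 cells, with a difference of 4.74 and RPM of 5.28 (3.54 to 7.58) and 157 (143 to 171). It overlaps Smcr8 on the other strand. Snora68, a small nucleolar RNA, was found in 9 and 21 cells, on 40 and 107 reads summed over cells, with a difference of 4.74. All 8 genes were also above 0 in the first experiment, as were 67.2% of all genes tested. Their differences there ran from 1.41 (Snora68) to 4.66 (Creld2). Between the control cultures, shLuc #2 lay below shLuc #1 for all 8, by -0.16 (Cirh1a) to -1.48 (Snora68).

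Factors of ribosome assembly and rRNA processing formed the group with the highest median on the mean of log2(TPM + 1). Of 86 members tested, 73 were higher (84.9%, against 22.1% of all genes tested) and 0 were lower. The median difference was 2.01 against 0.26 for all genes, and 1.07 on log2 of the mean TPM. In other settings another list was highest or higher. On log2 of RPM of summed reads snoRNPs had 1.098 against 1.050 for ribosome assembly. With at least 5000 genes per cell purine synthesis had 1.67 against 1.41. Wdr74, a factor of 60S maturation, was found in 13 and 22 cells, with medians of 32.8 and 551 TPM and a difference of 3.88. Npm1 (nucleophosmin), an abundant nucleolar chaperone found in every cell, had medians of 1141 and 1674 TPM and a difference of 0.51. Emg1, an rRNA methyltransferase, had a difference of 0.64. Utp18, of the small subunit processome, was lowest at 0.14, and Noc4l was highest. Here and for the lists that follow, the highest and lowest member are taken among those with reads in at least 50% of the cells of one culture.

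The score of this group, the mean log2(TPM + 1) over its 86 members in a cell, moved with the number of genes detected. It ranged from 1.78 through 3.38 to 5.001 in shLuc #2 and from 3.24 through 5.32 to 6.49 in shCTCF #2. In 17 of 24 shCTCF #2 cells it lay above every shLuc #2 cell. Pearson's r with genes detected over cells of one culture was 0.783 in shLuc #2 (23 cells) and 0.759 in shCTCF #2 (24 cells), as a description of cells that share one library each for both values. Among cells with at least 5000 genes, 9 and 18 cells, the medians were 3.97 and 5.59. The median difference of the members was then 1.41. The part of the number of genes detected in the group's difference was not tested further.

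**Figure D3:**
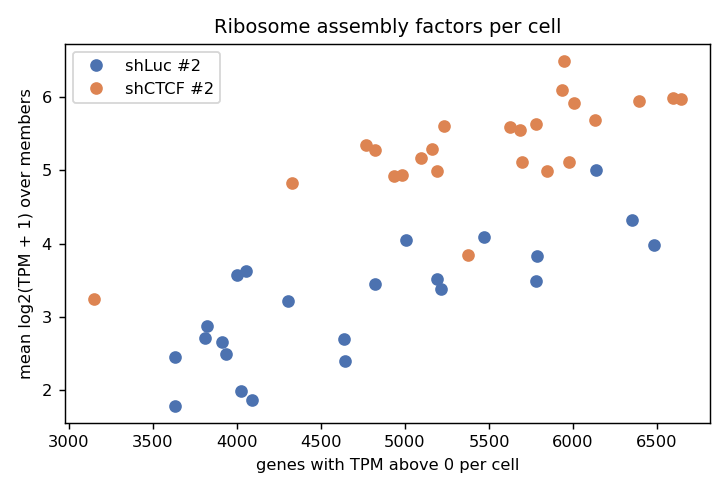
Genes above 0 TPM per cell (x axis) and the mean log2(TPM + 1) over 86 ribosome assembly factors (y axis), 1 point per cell kept. At like numbers of genes most shCTCF #2 cells lie above the shLuc #2 cells, and 17 of 24 lie above every shLuc #2 cell.

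Promoters of this group are shown because its members lay in one direction. They were searched for the E-box CACGTG, a palindrome bound by Myc with Max and by other factors, which reads the same on both strands. The sequences are from RefSeq on GRCm38.p6, 250 bases before to 50 bases after the gene's start, on the gene's strand, with each CACGTG in capitals. The first is Nolc1 (chr19:46075597-46075896), which has none and belongs to the snoRNP list, not to this group. The others are the 3 members of the ribosome assembly group with the highest difference among those with the motif. They are Cirh1a (chr8:106893390-106893689), Imp4 (chr1:34439579-34439878), a protein of the U3 snoRNP, and Nop2 (chr6:125131633-125131932), an rRNA methyltransferase.
Nolc1: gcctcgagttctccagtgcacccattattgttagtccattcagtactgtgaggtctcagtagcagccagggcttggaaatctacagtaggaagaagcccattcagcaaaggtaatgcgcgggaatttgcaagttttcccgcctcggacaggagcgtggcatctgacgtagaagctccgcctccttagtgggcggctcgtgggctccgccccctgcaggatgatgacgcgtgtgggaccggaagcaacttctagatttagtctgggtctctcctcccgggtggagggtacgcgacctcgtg
Cirh1a: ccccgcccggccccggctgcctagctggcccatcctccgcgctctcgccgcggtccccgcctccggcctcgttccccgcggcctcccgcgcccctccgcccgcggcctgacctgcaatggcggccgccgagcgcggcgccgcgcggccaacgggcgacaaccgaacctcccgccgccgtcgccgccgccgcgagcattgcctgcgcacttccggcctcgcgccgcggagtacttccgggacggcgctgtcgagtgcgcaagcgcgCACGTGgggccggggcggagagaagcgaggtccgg
Imp4: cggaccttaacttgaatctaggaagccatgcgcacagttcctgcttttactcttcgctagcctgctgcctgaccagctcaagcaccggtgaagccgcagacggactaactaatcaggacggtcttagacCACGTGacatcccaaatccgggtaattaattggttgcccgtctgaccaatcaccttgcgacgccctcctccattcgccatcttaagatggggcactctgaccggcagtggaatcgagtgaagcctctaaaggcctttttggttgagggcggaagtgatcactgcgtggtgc
Nop2: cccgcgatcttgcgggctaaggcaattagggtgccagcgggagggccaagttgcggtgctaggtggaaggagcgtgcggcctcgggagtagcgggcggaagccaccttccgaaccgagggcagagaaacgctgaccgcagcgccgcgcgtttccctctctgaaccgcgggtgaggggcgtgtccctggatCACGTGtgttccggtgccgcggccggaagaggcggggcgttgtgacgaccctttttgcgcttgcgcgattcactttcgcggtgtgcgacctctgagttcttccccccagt
The site lay 15 bases after the start in Cirh1a, 121 bases before it in Imp4 and 60 bases before it in Nop2. Of the 73 members with a promoter in the table, 17 held CACGTG (23.3%), against 1067 of 8841 of all genes tested (12.1%). Among genes with the fold, it was held by 282 of 1966 higher genes (14.3%) and 36 of 423 lower genes (8.51%). In the snoRNP list 0 of 13 promoters held it, and in the purine list 3 of 11. The immediate early genes, which lay the other way, held it in 4 of 19 promoters (21.1%), and glycolysis genes in 4 of 20. A match describes the letters of this window and is no evidence of binding. Myc itself, found in 22 cells of each culture, had medians of 161 and 296 TPM and a difference of 0.61. The network of Myc, Max and Mxd proteins had 0 members higher and 2 of 10 lower (4.75% of all genes were lower). Its median was -0.074, and -0.79 on log2 of the mean TPM, where 9 of 10 lay below 0.

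The snoRNP, polymerase and nucleotide lists also had medians above that of all genes. For the lists that follow, shares are read against 22.1% of all genes higher and 4.75% lower, without matching for expression level. Of 15 snoRNP members, 10 were higher (66.7%) and 0 lower, with a median of 1.53, and 1.07 on log2 of the mean TPM. Nop56, a core protein of box C/D snoRNPs, had a difference of 2.88, and Nhp2, of box H/ACA snoRNPs, one of 2.46. Smn1, which assembles small RNPs, was lowest at 0.63. Of 20 members of the RNA polymerase I list, 8 were higher (40%) and 1 lower, with a median of 0.90, and 0.59 on log2 of the mean TPM. Polr1b, the second largest subunit, was found in 2 of 23 and 19 of 24 cells, with a difference of 4.44. Ttf1, which terminates its transcripts, was lowest at -1.09.

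Of 12 genes of de novo purine synthesis, 9 were higher (75%, against 22.1% of all genes) and 0 lower, with a median of 1.88, and 0.85 on log2 of the mean TPM. Beside Gart, Prps1, which makes the ribose phosphate donor, had a difference of 1.95, and the bifunctional enzyme Paics had 1.14. Impdh1, of guanine nucleotide synthesis, had -0.023. Of 16 serine and folate enzymes, 8 were higher (50%) and 0 lower, with a median of 0.95, and 0.89 on log2 of the mean TPM. Phgdh, the first enzyme of serine synthesis, had a difference of 1.27, and Mthfd2, a mitochondrial folate enzyme, had 0.24.

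Protein synthesis and folding factors also had list medians above that of all genes, 0.26. Genes at mean levels from 4 to 6 had a median of 0.75, and the lists were not matched for level. Of 23 cytosolic aminoacyl-tRNA synthetases, 12 were higher (52.2%, against 22.1% of all genes) and 1 lower, with a median of 1.14. On log2 of the mean TPM the median was 0.39, and 7 of 23 lay below 0. Tars, the threonyl enzyme, was found in 15 and 24 cells, with medians of 9.24 and 221 TPM and a difference of 4.19, and Mars, the methionyl enzyme, was lowest at -1.15. Of 22 members of the CCT chaperonin and Hsp90 list, 10 were higher (45.5%) and 0 lower, with a median of 0.91, and 0.45 on log2 of the mean TPM. Fkbp4, a cochaperone of Hsp90, had 2.99, and Hsp90ab1, found in every cell, had medians of 4033 and 5369 TPM and a difference of 0.47. Of 18 histone chaperones, 7 were higher and 0 lower (against shares of 22.1% and 4.75% among all genes), with a median of 0.75. On log2 of the mean TPM the median was 0.15, with 9 above 0 and 9 below. Set lay above every shLuc #2 cell in 13 of 24 shCTCF #2 cells, with medians of 485 and 1324 TPM and a difference of 1.26.

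The proteins of the ribosome itself did not share the direction of its assembly factors. Of 82 cytosolic ribosomal protein genes tested, 6 were higher and 3 lower, with a median of -0.082. Their median member was found in 100% of cells of both cultures. For assembly factors this share was 58.7% in shLuc #2 and 87.5% in shCTCF #2. Over all genes the median difference was 0.75 at mean levels from 4 to 6 and -0.026 above 8. The part of expression level in this contrast was not tested. Rpl32 had medians of 5462 and 4373 TPM and a difference of -0.31, and Rplp0 had 4968 and 5202 TPM and 0.097. Nuclear-encoded genes of oxidative phosphorylation had 9 of 79 higher, 1 lower and a median of -0.028. Cyc1, of complex III, was highest at 2.15, and Cox8a, of complex IV, had -0.42.

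**Figure D4:**
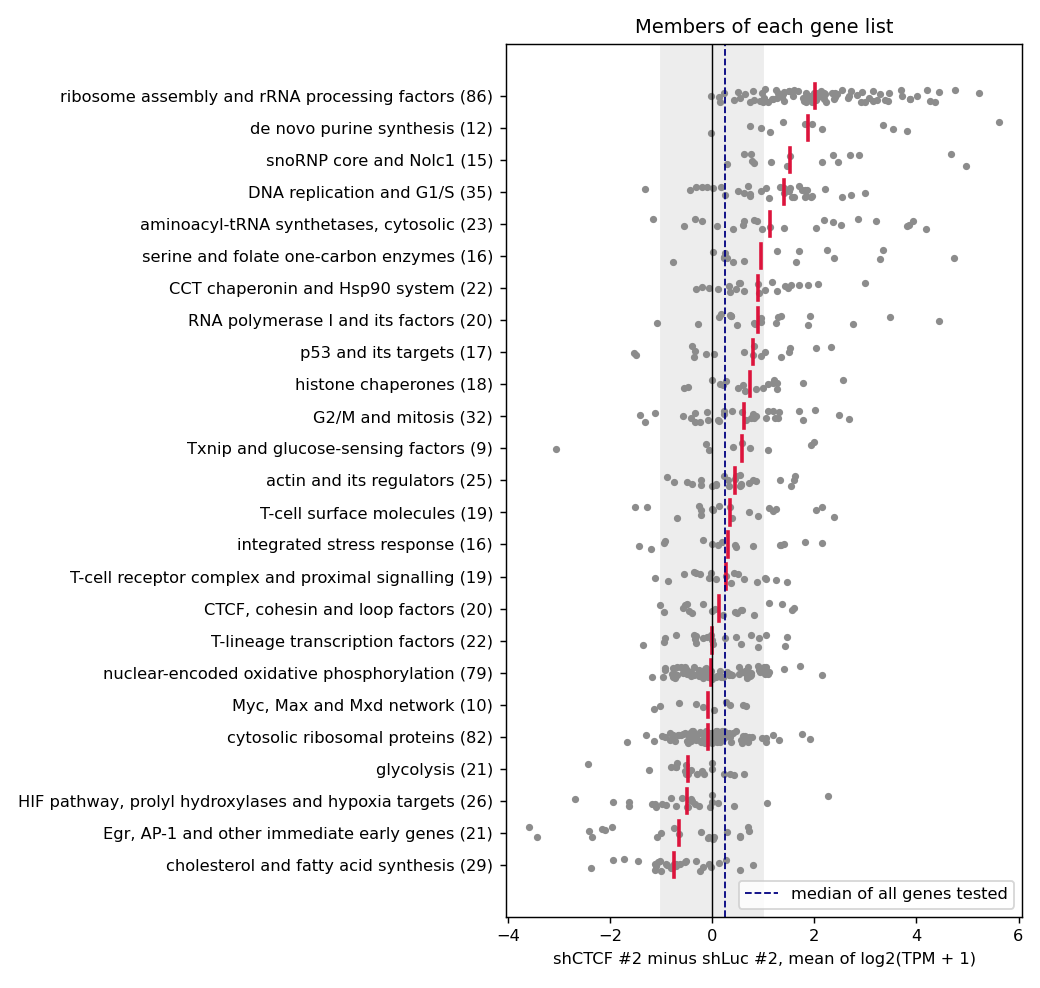
Difference of each tested member (grey points, x axis, shCTCF #2 minus shLuc #2, mean of log2(TPM + 1)) for each gene list (y axis, number of members in brackets), with red bars at list medians, the grey band from -1 to 1 and the dashed line at the median of all genes, 0.26. Ribosome assembly factors have the highest median, 2.01, and cholesterol and fatty acid synthesis the lowest, -0.75.

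Among immediate early genes, 9 of 21 were lower and 0 higher. Egr1, a zinc finger transcription factor, was found in 21 of 23 and 21 of 24 cells. It ranged from 0 through 573 to 2734 TPM in shLuc #2 and from 0 through 97.1 to 1410 TPM in shCTCF #2. The ranges overlapped, and 3 of 24 shCTCF #2 cells lay above the shLuc #2 median. The mean of log2(TPM + 1) was 8.40 (SD 2.87) and 6.04 (SD 3.08), a difference of -2.36, and RPM was 992 (966 to 1019) and 316 (297 to 336). The difference of Egr1 was -3.88 among cells with at least 5000 genes, and -1.01 with the 5 deepest shCTCF #2 cells alone against all shLuc #2 cells.

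Fos, a subunit of AP-1, was found in 23 of 23 and 20 of 24 cells, with medians of 1462 and 183 TPM and a difference of -3.58. In 6 of 23 shLuc #2 cells it lay above every shCTCF #2 cell. The nuclear receptor Nr4a1 was found in 20 and 12 cells, with medians of 178 and 6.35 TPM and a difference of -3.43. Btg2, an antiproliferative gene, had -2.15, and Junb, another AP-1 subunit, was found in 17 and 13 cells and had -2.10. Between the control cultures Junb differed by -1.47. The 9 lower members were 42.9% of the list, against 4.75% of all genes tested, and the list had a median of -0.66. Zfp36, which destabilises mRNAs, was highest at 0.72, and at -0.016 on log2 of the mean TPM. Cd69, an early activation antigen, had medians of 874 and 230 TPM and a difference of -1.50. On log2 of the mean TPM, Egr1 had -1.58, Fos -1.84 and Nr4a1 -1.503.

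The other genes with the greatest negative difference were diverse. Txnip, which binds thioredoxin and restrains glucose uptake, was found in 21 and 16 cells, with medians of 277 and 41.3 TPM and a difference of -3.05. It overlaps Gm15441 on the other strand. Gsn (gelsolin), an actin-severing protein, was found in 23 and 20 cells, with medians of 695 and 178 TPM and a difference of -2.98. Fkbp5, a cochaperone induced by glucocorticoids, was found in 20 and 10 cells, with a difference of -3.15. The carbonyl reductase gene Cbr4 was found in 17 and 9 cells, with -3.15. A pair of microRNA loci lie within exons of host genes on the same strand, so their reads cannot be told apart from those of the host. Mir8112, within Krcc1, had -3.98, on 90 reads summed over shLuc #2 cells and 16 over shCTCF #2 cells. Mir3064, within Ddx5, had -3.88, on 34 and 2 reads. After thinning their differences were -2.76 and -2.77. On log2 of the mean TPM + 1 they were -1.87 for Mir8112 and -2.87 for Mir3064. On that scale Txnip had -1.90, Gsn -1.67, Fkbp5 -3.21 and Cbr4 -2.82.

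For 3 of these genes the control cultures also differed by more than 2, with shLuc #2 the higher. Shown side by side, shLuc #2 minus shLuc #1 was 3.69 for Mir8112, 3.28 for Cbr4 and 2.20 for Fkbp5. In the first experiment their differences were 0.79, 0.28 and -0.40. For Txnip the control cultures differed by -0.31 and the first experiment had -3.90. For Fos these values were 0.56 and -2.64.

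Sterol, glycolytic and hypoxia genes had medians below 0. Of 29 genes of cholesterol and fatty acid synthesis, 9 were lower (31.03%, against 4.75% of all genes) and 0 higher, with a median of -0.75, and -0.83 on log2 of the mean TPM. Msmo1, a sterol oxidase, was found in 17 and 12 cells, with medians of 225 and 4.19 TPM and a difference of -2.36. Hmgcs1, which condenses acetoacetyl-CoA, had medians of 243 and 64.99 TPM and -1.94. Scd2, a fatty acid desaturase found in every cell, had medians of 576 and 220 TPM and -1.45, and 16 of 23 shLuc #2 cells lay above every shCTCF #2 cell. Fasn, the fatty acid synthase, was highest at 0.79.

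Of 26 HIF and hypoxia genes, 7 were lower (26.9%, against 4.75% of all genes) and 2 higher (7.69%, against 22.1%), with a median of -0.48, and -0.83 on log2 of the mean TPM. Plod1, a lysyl hydroxylase of collagen, was found in 16 and 9 cells, with -2.68, and Bnip3, a mitochondrial protein, had medians of 917 and 573 TPM and -1.104. Hilpda, a lipid droplet protein, was highest at 2.27. Of 21 glycolysis genes, 2 were lower (9.52%) and 0 higher, with a median of -0.47, and -0.48 on log2 of the mean TPM. Aldoc had 371 and 83.1 TPM as medians and -2.43, and 13 of 23 shLuc #2 cells lay above every shCTCF #2 cell. The major aldolase, Aldoa, had medians of 19357 and 13980 TPM and -0.53, and Pkm, pyruvate kinase, 4713 and 3520 TPM and -0.51. Ldha, lactate dehydrogenase, had 6697 and 6800 TPM and 0.0069. Gapdh, another enzyme of this pathway, had 1129 and 982 TPM and -0.16. The summed level of glycolysis genes had a median of 40981 TPM in shLuc #2 and 32767 TPM in shCTCF #2. The lowest cells had 29078 and 6103 TPM, each a value of 1 cell. The lowest mean log2(TPM + 1) over members, 5.37, was that of the shCTCF #2 cell with 41591 reads.

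Genes of T-cell identity had no common direction. Of 19 genes of the receptor complex and its signalling, 4 were higher and 1 lower, with a median of 0.26, and -0.19 on log2 of the mean TPM. Cd3g, a receptor chain, had medians of 2916 and 1501 TPM and a difference of -1.12, and Cd3d, another chain, had -0.32. Of 19 surface molecules, 6 were higher and 2 lower, with a median of 0.35, and -0.048 on log2 of the mean TPM. Cd5, an inhibitory receptor, was found in 15 and 22 cells, with a difference of 2.16, but 0.12 on log2 of the mean TPM, and -0.31 among cells with at least 5000 genes. Thy1 had 0.35 and Cd28, a costimulatory receptor, 0.39, which was -0.27 on log2 of the mean TPM. Cd2, an adhesion receptor, was highest at 2.39. Of 22 lineage transcription factors, 3 were higher and 1 lower. Gata3 was found in every cell, with medians of 338 and 303 TPM and a difference of -0.00060. It overlaps Gm13256 on the other strand. Tcf7 had 0.77, and Bcl11b was lowest at -1.35 but had 0.41 on log2 of the mean TPM.

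Cell cycle genes depended on the scale. Of 35 replication and G1/S genes, 21 were higher and 1 lower, with a median of 1.40, and 0.29 on log2 of the mean TPM. Rfc4, of the clamp loader, was found in 10 and 20 cells, with a difference of 3.00, Rrm2, of ribonucleotide reductase, had 1.96, and Ccne2 (cyclin E2) was lowest at -1.32. Of 32 G2/M genes, 11 were higher and 3 lower, with a median of 0.62, which reversed to -0.39 on log2 of the mean TPM and to -0.35 among cells with at least 5000 genes. Ccnb1 (cyclin B1) was found in 10 and 20 cells and had 2.67. Top2a, a topoisomerase, had 401 and 196 TPM as medians and -0.10, and Hmmr, a spindle protein, was lowest at -1.41.

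The lists of cell stress and shape had mixed members. Of 17 p53 genes, 6 were higher and 2 lower, with a median of 0.80. These are 35.3% and 11.8% of the list, against 22.1% and 4.75% of all genes. On log2 of the mean TPM the median was 0.31, and 7 of 17 lay below 0. Aen, a nuclease, was highest at 2.32, while Trp53inp1 was lowest at -1.53. Of 16 genes of the integrated stress response, 5 were higher and 2 lower, with a median of 0.32, and 0.16 on log2 of the mean TPM. Xbp1, a transcription factor of the unfolded protein response, was highest at 2.16, and Ddit3 (CHOP) lowest at -1.42. Of 25 actin genes, 4 were higher and 0 lower, with a median of 0.45, and 0.070 on log2 of the mean TPM. Actb had medians of 7379 and 12226 TPM and 0.57. Of 9 genes of the Txnip list, 3 were higher, among them Arrdc1, a relative of Txnip, at 1.93, and 1 was lower, Txnip itself. Of 10 stress and RNA quality genes, 1 was higher, Hmox1 at 1.05, and 2 were lower, among them the nuclear RNA Neat1 at -2.63, with a median of 0.071.

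The spread over cells differed by expression level. Over 7737 genes with a mean log2(TPM + 1) above 1, the median SD was 2.63 in shLuc #2 and 2.43 in shCTCF #2, and 64.9% of genes had the lower SD in shCTCF #2. The median difference in SD was -0.20 over all these genes. It was 0.026 at mean levels from 1 to 2, where 48.1% of genes had the lower SD in shCTCF #2, and -0.16 from 2 to 4. It was -0.53 at mean levels from 4 to 6, -0.56 from 6 to 8 and -0.069 above 8. The median share of cells with the gene was 73.9% (shLuc #2) and 87.5% (shCTCF #2) from 4 to 6. It was 91.3% and 95.8% from 6 to 8, and 100% in both cultures above 8. The part of these shares in the SD was not tested. Ribosome assembly factors had a lower SD in shCTCF #2 for 64 of 86 members. The share among all genes was 64.9% at mean levels from 2 to 4 and 85.3% from 4 to 6. The list was not matched for level, so its count is not read as particular to it. The largest decreases were those of Tubb4a, a tubulin, found in 8 of 23 and 0 of 24 cells (which allows a share of up to 12.5%, taken as 3 cells of the total), Bckdk, a kinase of branched-chain amino acid breakdown, Nt5c, a nucleotidase, and Aprt, of purine salvage. Nt5c was found in 16 and 24 cells, with an SD of 3.92 and 1.11. The largest increases were those of genes nearly absent in shLuc #2. Actr3b, an actin-related protein, was found in 0 of 23 cells (up to 13.04%, taken likewise) and 9 of 24 cells. The predicted gene Gm5547 was found in 0 and 8 cells, 3110082I17Rik in 1 and 14 cells and Snord34, a small nucleolar RNA, in 1 and 6 cells.

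The leading axis of variation followed the number of genes detected in each cell. In a PCA of the 47 cells on log2(TPM + 1), PC1 held 8.07% of the variance, and 21 of 24 shCTCF #2 cells and 6 of 23 shLuc #2 cells had a score above 0. Its r with genes detected was 0.969 over the shLuc #2 cells and 0.955 over the shCTCF #2 cells, as a description. PC2 held 3.99%, with 12 and 13 cells above 0. The median correlation of log2 values between a pair of cells was 0.600 within shLuc #2 and 0.690 within shCTCF #2.

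List medians were also taken over cells with at least 5000 genes, 9 of shLuc #2 and 18 of shCTCF #2. The median was then 1.67 for purine synthesis, 1.06 for aminoacyl-tRNA synthetases, 0.81 for snoRNPs, 0.70 for RNA polymerase I, 0.39 for one-carbon enzymes, 0.35 for G1/S and 0.19 for p53 genes. It was -1.24 for immediate early genes, -0.87 for hypoxia genes, -0.86 for cholesterol and fatty acid synthesis and -0.26 for glycolysis. It changed sign from 0.62 to -0.35 for G2/M, from 0.35 to -0.38 for T-cell surface molecules, from 0.13 to -0.50 for loop factors and from 0.071 to -0.62 for stress and RNA quality. Gart then had a difference of 4.54, Nolc1 one of 3.86 and Fos one of -3.69. A further setting kept the 5 shCTCF #2 cells with at least the reads of the shallowest shLuc #2 cell. They held 146948 to 271300 reads, against a median of 230477 in shLuc #2, so depth was not matched. Against all shLuc #2 cells they gave 1.91 for ribosome assembly, -1.42 for cholesterol and fatty acid synthesis and -0.20 for immediate early genes.

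The first experiment, which shared no cell with the second, had similar counts. There, 2645 of 11193 genes were higher (23.6%) and 371 lower (3.31%) in shCTCF #1. Of the 2430 genes higher in the second experiment, 2137 (87.9%) were above 0 in the first, against 67.2% of all genes tested, and 1361 (56.01%) were higher there, against 23.99%. Of the 522 lower genes, 303 (58.05%) were below 0 in the first, against 30.6%, and 87 (16.7%) were lower there, against 3.38%. The number of genes detected moved the same way in both experiments, with medians of 4771 in shLuc #1 and 6172.5 in shCTCF #1.

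List medians of the first experiment stood at 1.86 for ribosome assembly, 2.33 for snoRNPs, 1.44 for purine synthesis, 1.90 for G1/S and 1.40 for G2/M. On log2 of the mean TPM, G1/S had 0.81 and G2/M -0.13. On the first scale, medians stood at -0.63 for cholesterol and fatty acid synthesis, -0.50 for hypoxia genes, -0.33 for glycolysis and -0.24 for immediate early genes. Ribosome assembly members had the same sign in both experiments for 84 of 86 genes, and cholesterol and fatty acid members for 23 of 29. For Egr1 the first experiment had -1.97, for Gart 2.97 and for Nolc1 3.83. Gart and Nolc1 were higher, and Egr1 lower, in each culture labelled shCTCF, while Ctcf, over all cells kept, was lower in one of them and not in the other. These genes were chosen with earlier results of these data known, so their like directions are a description and not independent evidence.

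**Figure D5:**
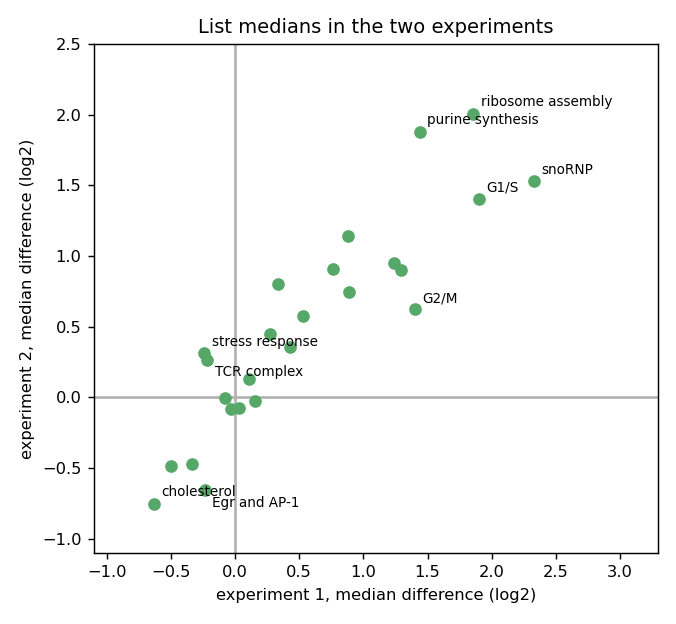
Median difference of each gene list in the first experiment (x axis, shCTCF #1 minus shLuc #1) and in the second (y axis, shCTCF #2 minus shLuc #2), on log2(TPM + 1), 1 point per list. Ribosome assembly lies at 1.86 and 2.01 and cholesterol synthesis at -0.63 and -0.75, while the T-cell receptor and stress response lists lie on opposite sides of 0.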

How the data were processed

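RNA of single EL4 cells from the Fluidigm C1 system was amplified with the SMARTer protocol. The authors used STAR on GRCm38 and HTSeq to count uniquely mapping reads per gene, and deposited TPM for 24057 genes in 96 cells. The deposited TPM values adjust for gene length and cell total, so depth is not visible in them. Reads were worked back from the smallest step shared by a gene's values, and 504605 of 504605 values above 0 lay within 0.001 of a whole number. The step was chosen to make a gene's values whole, so this count is no separate check. Recovery was tested on simulated cells, in which some cells first came out with doubled reads. A correction for cells with nearly all even counts was therefore added. After it, from 52.4 to 61.05% of counts in each cell kept were odd. Whether it moved a deposited cell was not recorded.

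The comparison used 10989 genes that exceeded 1 on log2(TPM + 1) in 2 or more of the 47 cells, with a pseudocount of 1. With 1 culture a side there was no test. Intervals are exact 95% binomial or Poisson ones. No pair of cells held identical values.

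Genes named were Ctcf, Egr1, Gart and Nolc1, those named in the study's text, the 8 largest differences each way among genes in at least 50% of the cells of a culture, the 4 largest SD differences each way, and per list the 3 members with the highest mean TPM and the highest and lowest difference. The members and lists were chosen with earlier results of these data known. Coordinates are from GENCODE M21 (GRCm38). Python 3.11.15, pandas 2.3.3, numpy 2.4.6, scipy 1.17.1 and scikit-learn 1.9.0 were used. Alternatives covered the scale, pseudocount, filters on genes and cells, thinning to 80000 reads, centring and leaving out shallow cells.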

Additional observations from a re-analysis of the deposited data

Results flagged for a closer look

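In 15 named genes the differences of the second and the first experiment had opposite signs, with at least one of them past 2-fold, and the difference between the experiments was not tested, as each rests on 1 culture a side. For Ctcf they were 0.58 (shCTCF #2 minus shLuc #2) and -1.83 (shCTCF #1 minus shLuc #1). Above 0 in the second experiment and below 0 in the first were Herpud1, a stress gene of the endoplasmic reticulum (1.83 against -0.23), Gm5547 (2.14 against -0.038), Snord34 (2.01 against -0.91), Hmox1, heme oxygenase (1.05 against -1.91), and Ptpn6, a phosphatase of receptor signalling (0.50 against -1.39). Below 0 in the second and above 0 in the first were Mir8112 (-3.98 against 0.79), Cbr4 (-3.15 against 0.28), Tubb4a (-2.11 against 0.086), Mxd3, of the Max network (-1.01 against 0.49), Mars (-1.15 against 0.54) and Atp5g2, of ATP synthase (-1.18 against 0.41). Among cell cycle genes these were Ccne2 (-1.32 against 1.15), Top2a (-0.10 against 1.45) and Hmmr (-1.41 against 1.55). Herpud1 was -0.020 in the second experiment on log2 of the mean TPM, and Atp5g2 was 0.24 after thinning.

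Medians of 5 lists also had opposite signs, again untested. They were 0.26 and -0.22 for the T-cell receptor list, 0.32 and -0.24 for the integrated stress response, 0.071 and -0.16 for stress and RNA quality, -0.074 and 0.032 for the Myc network, and -0.028 and 0.15 for oxidative phosphorylation, in the second and first experiment.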

How the results depend on the processing

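The number of genes higher (2430) moved by more than 1.5 times with a pseudocount of 10 (847) and 0.1 (3668), and lay between 1784 and 2715 in the other 11 alternatives. The number lower (522) depended more on the processing. It was 1917 on log2 of the mean TPM + 1, 1891 on RPM of summed reads, 140 and 1061 with pseudocounts of 10 and 0.1, 836 with at least 4000 genes per cell, 1555 with at least 5000, 948 after centring on the median, and 1646 without the 19 shCTCF #2 cells shallower than every shLuc #2 cell. Ctcf reversed to -0.28 with at least 4000 genes per cell and to -0.68 with at least 5000, and was 1.38 without the 19 cells. The difference in genes detected was 1279 after thinning. The median SD difference ran from -0.28 to -0.15. Without the shallowest shCTCF #2 cell 2596 genes were higher and 481 lower. Of 14 lists with a median of at least 0.5 either way, 1 reversed. This was G2/M, at -0.39 on log2 of the mean TPM, -0.35 on RPM, -0.28 and -0.35 with at least 4000 and 5000 genes, and -1.01 without the 19 cells. Of 85 named genes past 2-fold, 13 reversed in some alternative. On log2 of the mean TPM these were Bckdk (-0.14), Csk (-0.32), Bcl11b (0.41), Ikzf3 (-0.39), Asf1b (-0.45) and Herpud1 (-0.020). On RPM they were Bckdk (-0.032), Ikzf3 (-0.20), Asf1b (-0.34) and Herpud1 (-0.11). With at least 5000 genes they were Cd5 (-0.31), Cdca5 (-0.14), Hilpda (-0.37), Asf1b (-0.23) and Rrm1 (-0.32, and -0.28 with at least 4000). Without the 19 cells they were Cdca5 (-0.049), Ccnb1 (-0.86) and Hmox1 (-0.33), and after thinning Atp5g2 (0.24). The cause was not tested. The alternatives with at least 5000 genes, without the shallowest cell and on RPM were chosen after seeing the data. Precision is limited by 1 culture a side and by the lower depth of shCTCF #2, which held 58.8% of the reads of shLuc #2. No paired analysis was possible because the cells of the cultures share no replicate number and no test was made.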
